A study of Mus musculus with 18 samples.

Results

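The genes described here are those that encode the proteasome, chosen by their symbols (Psma, Psmb, Psmc, Psmd, Psme, Psmf or Psmg followed by a number) without the immunoproteasome genes Psmb8, Psmb9 and Psmb10 and without 4 pseudogene names. The rule found 46 of the 35006 gene names in the retinal count data of 18 libraries from male mice. One of the 46, Psmc3ip, shares the letters of the pattern but encodes a meiotic recombination factor and not a proteasome subunit. It was kept in all counts and is named wherever it was called, which leaves 45 proteasome genes proper. Expression was high enough to test 44 of the 46. The exceptions were Psma8, a testis form of an alpha subunit with 0 to 2 counts per library, and Psmb11, a thymus form of a catalytic subunit with 0 to 3 counts.

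The retinas came from a cross of genotype with treatment. WT mice (C57BL/6J) were normoglycemic. Akita mice (C57BL/6-Ins2Akita/J, heterozygous) carry a misfolding insulin 2 protein that is toxic to pancreatic beta cells, which makes the mice diabetic from a young age. NACET, an ethyl ester form of N-acetylcysteine, an antioxidant, was taken daily by mouth from week 4 to week 24 of age (0.33 mg/mL in the water bottle, about 50 mg/kg each day), and the other mice drank plain water. There were 3 WT, 6 WT + NACET, 4 Akita and 5 Akita + NACET libraries. The labels do not say whether each library came from a separate mouse, so p-values measure the spread between these libraries.

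The proteasome is the main protease of the cytosol and nucleus. Its core particle is a barrel of stacked alpha and beta rings, in which 3 of the beta subunits (Psmb5, Psmb6 and Psmb7) cut proteins. A regulatory particle with a base of ATPases and a lid caps the barrel, recognizes ubiquitin chains and feeds the unfolded substrate inside. Assembly chaperones build the rings and the base, and alternative activators (Psme1 to Psme4) open the barrel without the regulatory particle. Transcription of the subunit genes is raised by NRF1 (Nfe2l1) when proteasomes are inhibited, and NRF2 (Nfe2l2), the oxidative stress factor that the study asked about, is also known to raise several of them through antioxidant response elements. Photoreceptors make large amounts of protein for their outer segments and depend on this degradation route.

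Because NRF2 acts at antioxidant response elements, the promoters of the members were searched for the core of that element, TGACNNNGC, on both strands. The window ran from 250 bases before to 50 bases after the transcription start in RefSeq (GRCm38.p6), and the sequences shown were located in mm9 by exact match. The core was found in 6 of the 38 members with a window (15.8%), against 3781 of all 27025 genes (14%). The 6 sequences are shown because they are the only matches among the members. Each is printed 5′ to 3′ on the strand of the gene, with up to 10 flanking bases and the matching letters in capitals.
Psmb5 (mm9 chr14:55236861-55236889, minus strand): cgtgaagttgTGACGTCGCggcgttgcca
Psmb6 (mm9 chr11:70338840-70338868, plus strand): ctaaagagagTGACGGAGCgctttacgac
Psmc6 (mm9 chr14:45949262-45949290, plus strand): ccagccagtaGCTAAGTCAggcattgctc
Psmd9 (mm9 chr5:123678158-123678186, plus strand): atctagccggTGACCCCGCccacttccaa
Psmd12 (mm9 chr11:107340592-107340613, plus strand): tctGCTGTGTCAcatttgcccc
Psme4 (mm9 chr11:30671758-30671786, plus strand): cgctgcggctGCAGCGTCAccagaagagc
In Psmb5, Psmb6 and Psmd9 the letters read TGAC first, and they lay at −47 to −39, −9 to −1 and −31 to −23 from the start. In Psmc6, Psmd12 and Psme4 they lay on the opposite strand, at −227 to −219, −247 to −239 and −7 to 2. The share among members was close to that of all promoters, and a match describes letters and not a bound site. No window was found for Psma8, Psmb1, Psmb2, Psmb7, Psmc3, Psmd3, Psmd7 or Psmg2.

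All 43 tested proteasome genes proper were expressed, over a wide range of levels per kilobase of annotated exon. The lowest mean was that of Psme4, the large nuclear activator PA200, at 1.99 ± 0.378 RPKM (SD, n = 18), and the highest that of Psmc5, a base ATPase, at 188 ± 21.1 RPKM, with a median gene at 48.5 RPKM. Subunits that occupy equivalent places in the rings differed widely. The 14 tested ring genes ran from 14.6 RPKM (Psma4) to 155 RPKM (Psmb1). The 6 base ATPases lay closer together, from 37.2 (Psmc2) to 188 RPKM (Psmc5). In the lid, levels ran from 6.19 (Psmd11) to 136 RPKM (Psmd8). The 7 assembly chaperones had a median of 24.6 RPKM, and the highest of them was Psmd5 at 45.4 RPKM. Among the activators and the inhibitor, Psme3, the nuclear activator PA28 gamma, stood at 49.9 RPKM and the other 4 between 1.99 and 9.07 RPKM.

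The order depended on the length used. Per kilobase of the longest coding transcript alone, Psmb6 was highest at 337 RPKM and Psma5 was the lowest ring gene at 19.4 RPKM, while Psme4 was the lowest of all on both scales. Neighbouring genes in the order were often within their spread, such as Psmc1 (87.6 ± 7.23 RPKM), Psmc4 (87.4 ± 8.76 RPKM) and Psmd7 (89.9 ± 7.71 RPKM). Psme2 (PA28 beta) was among the lowest, with 43 to 96 counts per library. Its level is uncertain, because the retrocopy Psme2b-ps was counted at 19.9 to 34.5 CPM in the same libraries and the files list reads with several alignments apart from the genes.

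**Figure D1:**
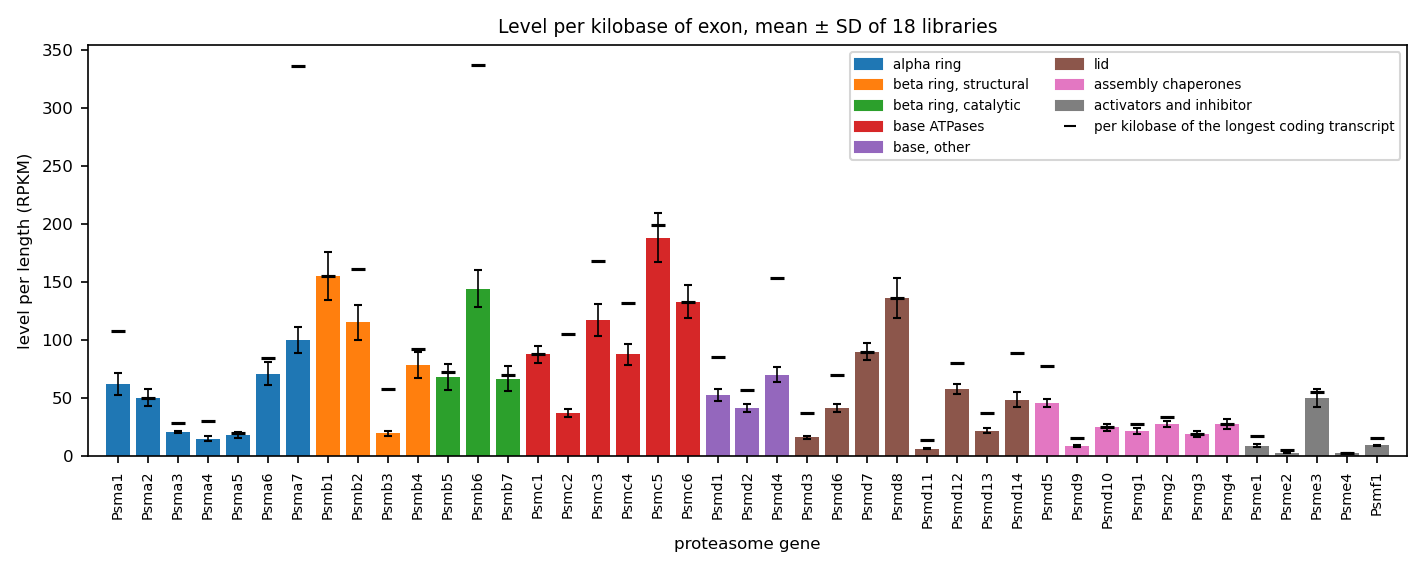
Mean level per length (RPKM, bars, with the SD over 18 libraries) of the 43 tested proteasome genes, coloured by role. The black dashes give the mean per kilobase of the longest coding transcript. Levels ran from 1.99 RPKM (Psme4) to 188 RPKM (Psmc5), and the place of a gene in the order changed with the length used.

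The members also differed in how steady they were over all 18 libraries. Psma3, an alpha ring subunit, was the most even, with 69.9 to 84.1 CPM and a coefficient of variation of 4.4%. Psmf1, the inhibitor PI31, varied by 5.38%. Psme4 varied most of the tested proteasome genes proper (19%), and the catalytic Psmb5 (16.2%) and Psmb7 (15.9%) varied more than Psmb6 (11%).

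The summed level of the 33 core and regulatory particle genes moved by group. It was 4092, 4500 and 4715 CPM in WT. In Akita it was 4772, 4784, 4793 and 5221 CPM, so that every Akita library stood above every WT library. In Akita + NACET it was 3409, 4172, 4222, 4405 and 4737 CPM, all below the Akita libraries and overlapping WT. The 6 WT + NACET libraries ran from 4366 to 5160 CPM, with a median of 4764, and overlapped all 3 other groups. These are bulk retinas, in which a change in the number of cells of one type and a change in RNA per cell cannot be told apart. CPM also rests on library sizes scaled by TMM factors, where a low factor raises the level of a library. The factors were 0.803 to 0.9701 in Akita, 0.9942 to 1.089 in WT, 0.93 to 1.033 in WT + NACET and 1.022 to 1.134 in Akita + NACET. Akita overlapped neither WT nor Akita + NACET in this factor. Separations between groups in CPM, here and below, hold on this scale and need not hold in unscaled counts. In Akita replicate 4 (factor 0.803) Psmb2 had 1703 counts among 15030007. Akita + NACET replicate 1 had more, 1882 among 14189244, though it stood lower in CPM (130 against 141). For Psmg4, Akita replicate 4 had 169 counts, and WT replicate 1 had 166 among only 12921235. Separations of other members and of the sums were not tested in unscaled counts.

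Another property of the libraries moved with these sums. Of the uniquely aligned reads, the percentage outside annotated exons was 16.3% ± 1.24 (SD, n = 3) in WT and 11.5% ± 1.85 (n = 4) in Akita. It was 12.8% ± 2.76 (n = 6) in WT + NACET and 16.4% ± 2.1 (n = 5) in Akita + NACET. The Akita libraries (9.67% to 13.3%) overlapped neither WT (14.9% to 17.1%) nor Akita + NACET (14.3% to 19.8%), so in these comparisons the share and the group cannot be told apart. Akita + NACET replicate 5 had the highest share (19.8%) and the lowest sum (3409 CPM). Within WT + NACET, the 3 libraries with shares of 9.55%, 10.4% and 11.3% had sums of 4935, 5160 and 5137 CPM, against 4366, 4419 and 4592 CPM in the 3 with shares of 14% to 16.6%. The activators and the inhibitor, summed, showed no such order: the lowest sum (199.4 CPM) was in a WT + NACET library with a share of 14%, and Akita replicate 4 (278.8 CPM, share 10.2%) was close to Akita + NACET replicate 5 (276.6 CPM). Psme3 was the largest part of this sum, at 103 to 190 CPM per library. No other gene of this set was above 65.4 CPM (Psmf1), so the sum mainly follows Psme3.

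**Figure D2:**
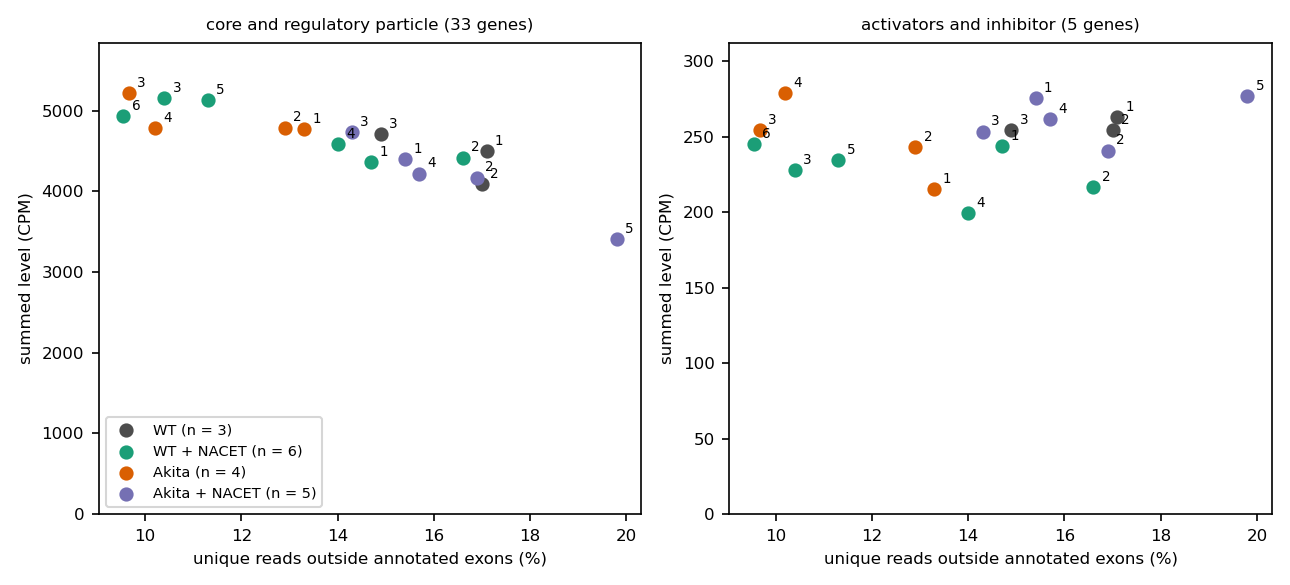
Summed level (CPM) of the 33 core and regulatory particle genes (left) and of the 5 activator and inhibitor genes (right) against the percentage of uniquely aligned reads outside annotated exons, 1 point per library, numbered by replicate. On the left, libraries with a low share had high sums, from 5221 CPM at 9.67% (Akita replicate 3) to 3409 CPM at 19.8% (Akita + NACET replicate 5). On the right, where Psme3 was the largest part of the sum, there was no such order.

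Akita was first compared with WT, which shows the state of the proteasome genes in the diabetic retina. A single member passed the test. Psmg4 (PAC4, a chaperone of alpha ring assembly) was at 11.9, 12.3 and 12 CPM in WT and at 14, 16.6, 17 and 17.5 CPM in Akita, without overlap. It was upregulated 1.35-fold (log2 fold change 0.43, SE 0.131, adjusted p = 0.0477). That is 2.27% of the 44 members, against 7.64% of all genes called in either direction and 3.96% called upregulated. Psmg4 lost its call when any 1 of 14 libraries was left out, and it is a gene of few counts (154 to 289 per library).

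The other members had small and mostly positive estimates. Of the 44, 36 were positive and 8 negative, with a median log2 fold change of 0.09 (all tested genes −0.01, 48.4% positive), but adjusted for the share outside exons the median was −0.09. All 7 structural and catalytic beta ring genes, all 6 base ATPases, all 3 other base subunits and all 8 lid genes had positive estimates. Psma5, an alpha ring subunit, had 19.5, 21.3 and 22 CPM in WT and 24.9, 25.2, 26 and 27.1 CPM in Akita. The groups did not overlap, yet its estimate of 0.30 (SE 0.109) missed the threshold (adjusted p = 0.0861). Psmd1, the large scaffold of the base, had 228, 250 and 266 CPM in WT and 277, 291, 298 and 324 CPM in Akita, with an estimate of 0.26 (SE 0.097, adjusted p = 0.0891). Psmg4, Psma5 and Psmd1 were chosen by their small p, and how many of all genes were separated between these groups was not counted. The most negative estimates by p were those of Psme2 (−0.21, SE 0.174), Psmd5 (−0.10, SE 0.0858) and Psme4 (−0.19, SE 0.181), with adjusted p-values from 0.454 to 0.512. At an unadjusted p under 0.05 there were 7 members (15.9%, against 27% of all genes), and DESeq2 called 3 (6.82%, against 7.58% of the genes it fitted), so neither share was above that of all genes.

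**Figure D3:**
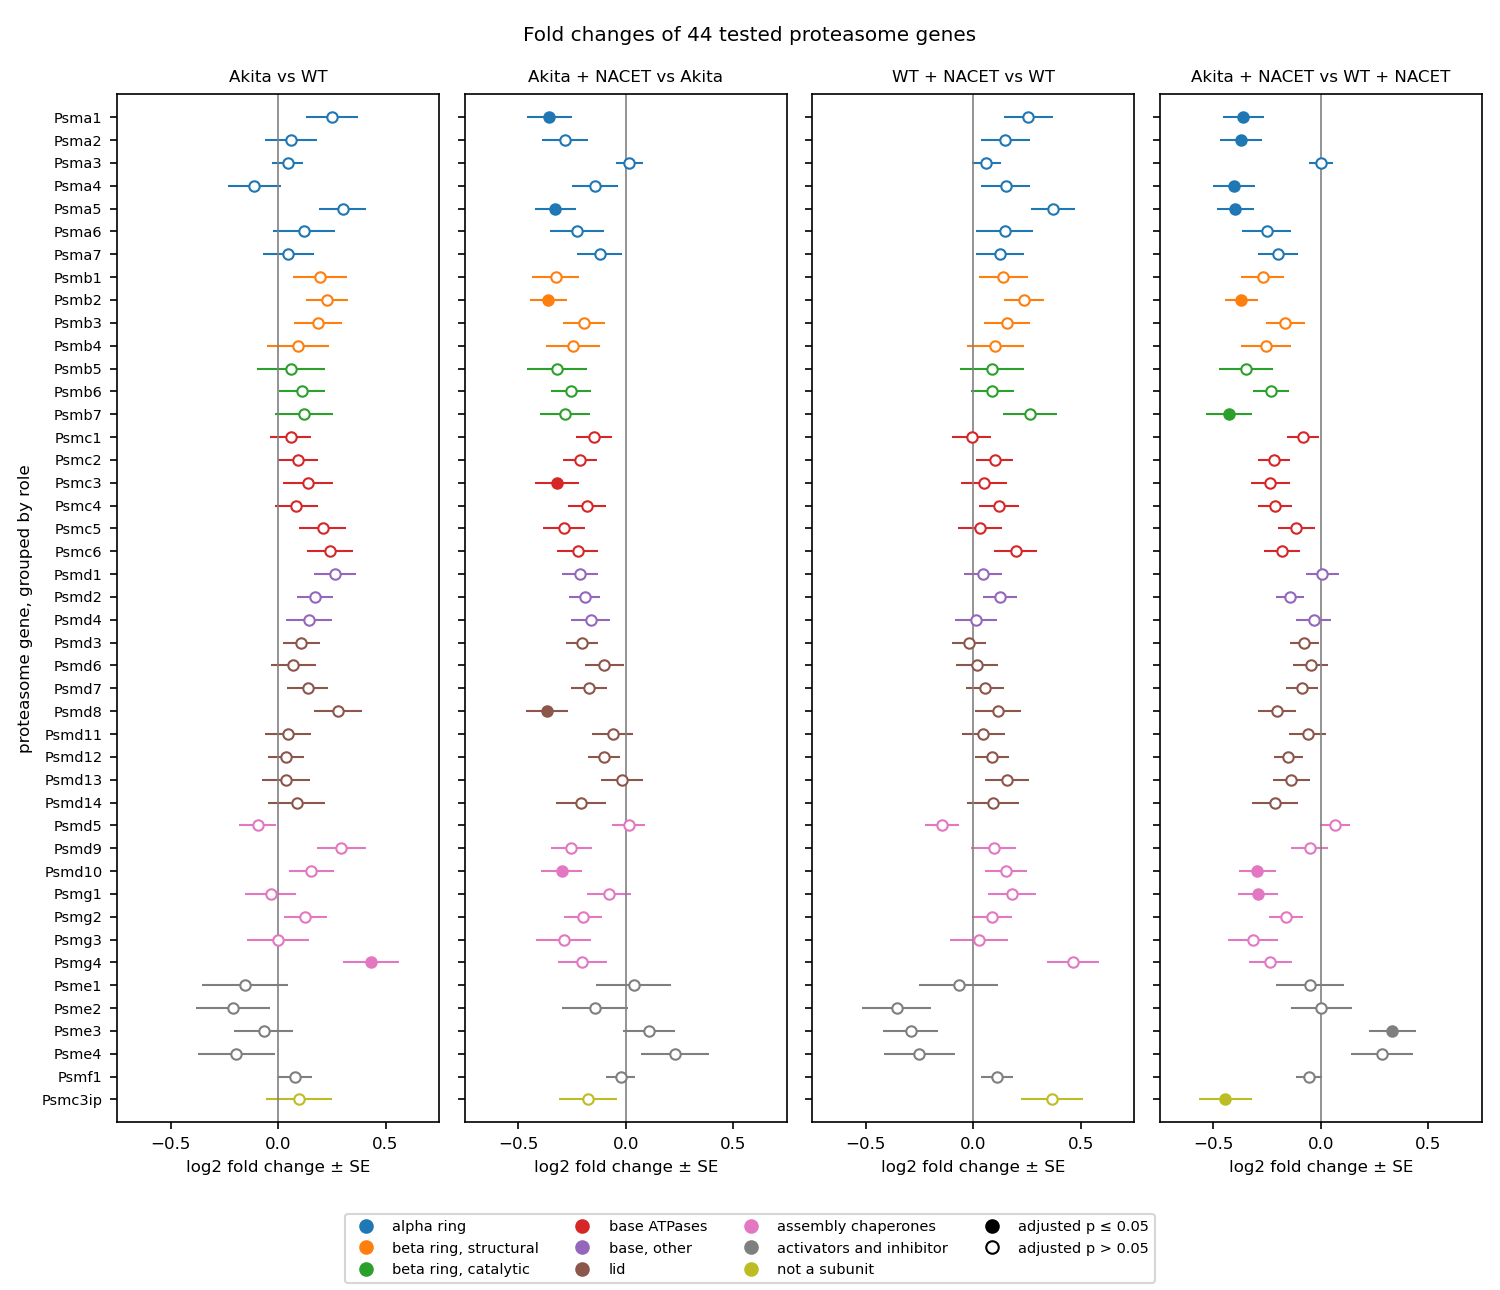
Log2 fold change ± SE of the 44 tested members, coloured by role, in 4 comparisons, with filled points for an adjusted p of at most 0.05 by the edgeR quasi-likelihood test. Most estimates lay right of 0 in Akita vs WT and WT + NACET vs WT and left of 0 in both comparisons of Akita + NACET, and 4 of the 5 activator and inhibitor genes were on the other side in Akita vs WT and in WT + NACET vs WT. After adjustment for the share outside exons the medians of Akita vs WT and WT + NACET vs WT turned negative and no point was called.

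NACET was then compared with water within Akita. In Akita + NACET, 6 members were downregulated and none was upregulated, which is 13.6% of the 44, against 9.65% of all genes called in either direction and 5.14% called downregulated. They were Psma1 and Psma5 of the alpha ring, Psmb2 of the beta ring, the base ATPase Psmc3, the lid subunit Psmd8 and Psmd10 (gankyrin, a chaperone of base assembly). Their changes were modest, from 0.775-fold to 0.813-fold, below the median absolute change of all called genes in this comparison (log2 0.49 against 0.30 to 0.37).

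Psmb2, a structural beta subunit, had the smallest p. Its level was 141, 146, 149 and 166 CPM in Akita and 94.9, 111, 120, 130 and 130 CPM in Akita + NACET. The groups did not overlap, and the gene fell by 0.36 on the log2 scale (SE 0.0864, adjusted p = 0.021). Psmd8 was at 228, 230, 243 and 245 CPM in Akita and at 139, 181, 188, 197 and 211 CPM in Akita + NACET, again without overlap. It was downregulated 0.775-fold (log2 fold change −0.37, SE 0.0987, adjusted p = 0.0296). Psma5 was at 24.9 to 27.1 CPM in Akita and at 16.3, 19.3, 20.5, 23 and 23.8 CPM in Akita + NACET (log2 fold change −0.33, SE 0.0947, adjusted p = 0.0374). For Psmb2 and Psmd8 no Akita + NACET library was above the highest WT library, for Psma5 there were 2 (23 and 23.8 CPM against 22 CPM), and in all 3 genes replicate 5 was the lowest.

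Psma1 had 133, 134, 143 and 158 CPM in Akita and 82.9, 111, 112, 121 and 128 CPM in Akita + NACET (log2 fold change −0.36, adjusted p = 0.0411). Psmc3, one of the ATPases that pull substrates into the barrel, had 321, 321, 339 and 360 CPM in Akita and 209, 270, 274, 275 and 315 CPM in Akita + NACET (−0.32, adjusted p = 0.0496). For Psmd10 the values were 35.1, 38.6, 39.5 and 41.9 CPM against 25.7, 30.6, 32.7, 33.2 and 35.5 CPM (−0.30, adjusted p = 0.049). The Psmd10 groups overlapped by 1 library, while those of Psma1 and Psmc3 did not. Psma5 shares its locus with 1700010K24Rik and Psmc3 with Slc39a13 on the other strand. Other members do so too: Psma4 (AY074887), Psmb7 (Nek6), Psmc3ip (Mlx), Psmd1 (Htr2b), Psmd3 (Gm12356), Psmd13 (Sirt3) and Psme1 (Fam158a). On the same strand, Psmd1 overlaps Armc9 and Psmb5 overlaps Mir686. Counting was unstranded, so reads of these genes cannot be fully told apart from those of their neighbours.

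Of all 44 members, 39 had a negative estimate and 5 a positive one, with a median of −0.20 (all tested genes 0.00, 50.4% negative). By role, the medians were −0.23 in the alpha ring, −0.28 in both parts of the beta ring, −0.22 in the base ATPases, −0.14 in the lid and −0.20 in the chaperones, but 0.04 among the activators and the inhibitor. The 3 catalytic subunits had negative estimates that missed the threshold. Psmb5, the chymotrypsin-like subunit, had 58.3, 63.5, 67.5 and 76.8 CPM in Akita and 33.1, 55, 56.2, 59.1 and 62.7 CPM in Akita + NACET, with overlap (−0.32, SE 0.139, adjusted p = 0.133). Psmb6, the caspase-like subunit, had an estimate of −0.25 (SE 0.0939, adjusted p = 0.083). That of Psmb7, the trypsin-like subunit, was −0.28 (SE 0.117, adjusted p = 0.115). The 5 positive estimates were those of Psma3 (0.02, SE 0.0639), Psmd5 (0.01, SE 0.0754), Psme1 (0.04, SE 0.175), Psme3 (0.11, SE 0.122) and Psme4 (0.23, SE 0.159). None of these 5 passed the test, with adjusted p-values of 0.356 and above.

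These calls depended on the fit. All 6 were lost when the 2 groups were fitted alone (median −0.18, 4.56% of all genes called) and with a replicate block (1.35% of all genes). With no filter on low counts 2 members were called (3.68% of all genes), and DESeq2 called 11 (25%, against 8.72% of the genes it fitted). They also changed when single libraries were left out. The share of all genes called in each such fit is given in brackets. The count of downregulated members was 0 without Akita replicate 4 (0.00617%) or without Akita + NACET replicate 5 (0.626%). It was 1 without Akita replicate 3 (6.15%) or Akita + NACET replicate 2 (2.64%). It was 2 without Akita replicate 1 (5%), Akita + NACET replicate 4 (5.41%) or WT replicate 3 (8.02%). It was 3 without Akita replicate 2 (9.37%) and 10 without Akita + NACET replicate 3 (10.9%). In a fit with the share outside exons as a covariate, 0 members were called, the median was −0.01 and 24 of 44 estimates were negative. In that fit, 0 of all 16183 genes were called in this comparison. Over 25 alternative settings, library omissions included, Psmb2 passed the test in 20, Psmd8 in 18, Psma1 in 14 and Psma5 in 12. Psmc3 and Psmd10 passed in only 5 each, and each lost its call in 15 of the 18 library omissions. All 6 estimates stayed negative in every setting. Gene length moved with it too: over all genes, the median log2 fold change was −0.13, −0.02, 0.03 and 0.09 from the shortest to the longest quartile of exon length. The members gave −0.25, −0.16, −0.20 and −0.02 in the same quartiles (19, 15, 7 and 3 genes). After a correction for length 5 of the 44 were called, beside 10.4% of all genes.

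Rod photoreceptor genes moved with the same groups. The summed level of 5 rod markers (Gnat1, Pde6a, Pde6b, Sag and Nrl, none at 0) was 34600 to 49900 CPM in Akita, 26300 to 36900 in WT, 32900 to 44600 in WT + NACET and 23900 to 32000 in Akita + NACET, so Akita overlapped WT but not Akita + NACET. In Akita + NACET vs Akita, 3 of the 5 were downregulated, such as Gnat1, the rod transducin subunit, with a log2 fold change of −0.65 (adjusted p = 0.0238). The 4 markers of Müller glia summed to 767 to 1490 CPM in Akita and 1150 to 1410 CPM in Akita + NACET. The 5 red cell markers were at 11.9 to 33.9 CPM in Akita and 35.7 to 97.2 CPM in Akita + NACET, without overlap. Microglia and macrophage markers were at 26.5 to 50.4 and 26.3 to 48.2 CPM. Pigment epithelium and choroid markers were at 57.7 to 205 and 85.6 to 630 CPM, and lens markers at 1.47 to 1310 and 1.24 to 644 CPM. No marker was at 0 over all libraries, and the part of these cell types in the proteasome result was not tested.

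In WT mice, NACET changed no member by the edgeR test, against 1.48% of all genes called. The median estimate was 0.10, 37 of 44 were positive, 8 had an unadjusted p under 0.05 (18.2%, against 19.5% of all genes) and DESeq2 called 2 (4.55%, against 2.62%). With the share outside exons as a covariate the median was −0.05. The smallest adjusted p was that of Psmg4, which had 14.7 to 19.2 CPM with NACET (median 16.5) and 11.9 to 12.3 CPM without, with no overlap (0.47, SE 0.122, adjusted p = 0.0564). Psma5 (25.2 to 28.8 CPM, median 26.8, against 19.5 to 22 CPM) had an estimate of 0.37 (SE 0.102, adjusted p = 0.0653). Psmb2 (138 to 165 CPM, median 150, against 126, 126 and 134 CPM) had one of 0.24 (SE 0.0922, adjusted p = 0.172). In all 3 genes every treated library was above every WT library, but they were chosen by their small p and none passed the test. How many of all genes were separated in this way was not counted.

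On the negative side in WT + NACET vs WT were Psme3, Psme2 and Psmd5. Psme3 was at 156, 156 and 158 CPM in WT and at 103 to 150 CPM (median 127) with NACET, with no overlap, and its estimate of −0.29 (SE 0.127) missed the threshold (adjusted p = 0.215). Psme2 had an estimate of −0.36 (SE 0.16, adjusted p = 0.227) and Psmd5 one of −0.15 (SE 0.0791, adjusted p = 0.302). The median of the activators and the inhibitor was −0.25, against 0.15 for the alpha ring.

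**Figure D4:**
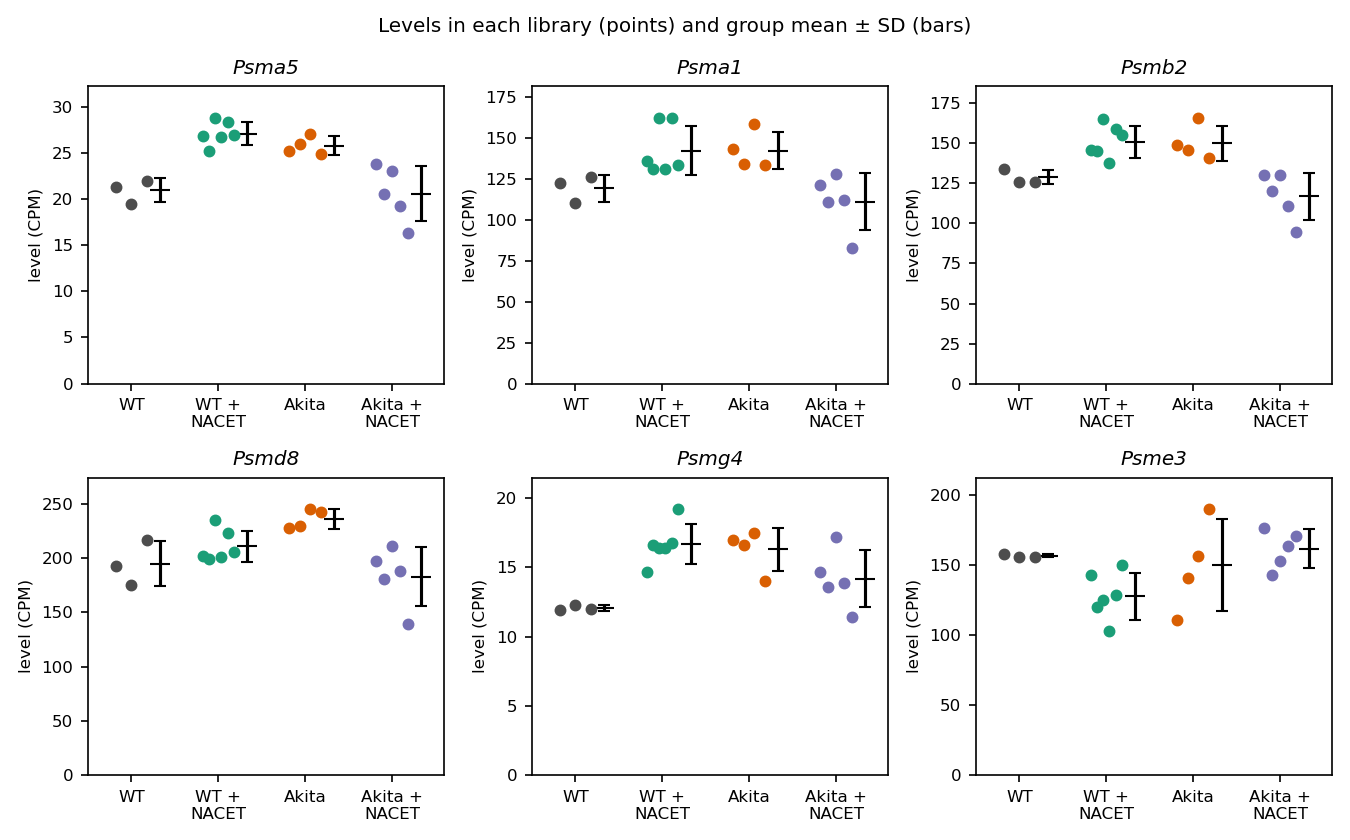
Level (CPM) of 6 members in each library (points) with the group mean ± SD (black). Psma5, Psma1, Psmb2 and Psmd8 were lower in Akita + NACET than in Akita in every library, Psmg4 was at 11.9 to 12.3 CPM in WT and at 14 CPM or more in Akita and in WT + NACET, and Psme3 had its lowest mean in WT + NACET.

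Treated Akita mice were also compared with both WT groups. Against WT, no member was called by edgeR (0.00618% of all genes), and 3 had an unadjusted p under 0.05 (6.82%, against 4.63% of all genes). DESeq2 called 0, against 0.0365% of the genes it fitted. The median was −0.09 and 35 of 44 estimates were negative. The largest positive estimate was that of Psmg4, whose Akita + NACET libraries (11.4, 13.6, 13.9, 14.7 and 17.2 CPM) overlapped WT (0.23, SE 0.125, adjusted p = 1).

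Against WT + NACET, 9 members were downregulated and 1 was upregulated, which together make 22.7% of the 44 against 13.3% of all genes (20.5% against 7.26% for the downregulated alone). The downregulated members were Psma1, Psma2, Psma4 and Psma5 of the alpha ring, Psmb2 and Psmb7 of the beta ring, the chaperones Psmd10 and Psmg1, and Psmc3ip. Psmb2 again had the smallest p (−0.37, SE 0.0786, adjusted p = 0.00605), and the catalytic Psmb7, with 45.8, 69.1, 69.7, 77.2 and 79.2 CPM against 84.9 to 106 CPM, fell by 0.43 (SE 0.106, adjusted p = 0.0142). No gene of the base or the lid was called. The upregulated member was Psme3, with 143, 153, 164, 171 and 177 CPM in Akita + NACET and 103 to 150 CPM in WT + NACET (0.33, SE 0.11, adjusted p = 0.0491). In this comparison Psme3 was the only member called in the direction opposite to the ring subunits. Its estimate was positive in all 25 alternative settings, from 0.28 to 0.45, but it passed the test in 6 of them and lost its call with 14 of the 18 libraries left out in turn. Psma2, Psma4, Psma5, Psmb2 and Psmb7 passed in 24 of 25, the exception being the share outside exons as a covariate. Psma1 passed in 21 and Psmc3ip in 20, but the chaperones Psmd10 and Psmg1 in only 15 and 12. With the share of all genes called in brackets, the count of calls was 5 without Akita + NACET replicate 5 (5.33%) or WT + NACET replicate 3 (6.94%). It was 6 without Akita + NACET replicate 2 (8.5%) or WT + NACET replicate 5 (7.87%), and 18 without Akita + NACET replicate 3 (15%). It was 0 with the share outside exons as a covariate (1.2%). Marker genes moved in this comparison too. Of the 6 microglia and macrophage markers 5 were downregulated (26.3 to 48.2 CPM summed in Akita + NACET, 52.3 to 77.1 CPM in WT + NACET, without overlap), 2 of the 5 rod markers were downregulated and 3 of the 5 red cell markers were upregulated. Lens markers reached 15100 CPM in a WT + NACET library, and the part of these cell types was not tested here either.

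The interaction of genotype and NACET asks whether the effect of NACET in Akita differed from that in WT. It was negative for 10 members, meaning a lower effect in Akita, which is 22.7% of the 44 against 20.3% of all genes in either direction and 10.2% in the negative direction. The 10 were Psma1, Psma5, Psmb1, Psmb2, Psmb7, Psmc6, Psmd2, Psmd8, Psmd10 and Psmg4, so that each part of the proteasome except the activators held at least 1. The difference was −0.70 for Psma5 (SE 0.139, adjusted p = 0.00359), −0.60 for Psmb2 (SE 0.127, adjusted p = 0.00514) and −0.67 for Psmg4 (SE 0.166, adjusted p = 0.011). Psma1, Psma5 and Psmb2 passed in 23 of 24 alternative settings, the exception being the share outside exons as a covariate, and Psmg4 in 22. Psmd8 passed in 20, Psmb7 and Psmd10 in 18, Psmc6 in 13, Psmd2 in 9 and Psmb1 in 7. Psmc6 was the only base ATPase called and Psmd2 the only other base subunit. For Psma5 the estimate was 0.37 in WT and −0.33 in Akita, and for Psmb2 0.24 and −0.36. The catalytic Psmb5 (−0.41, SE 0.204, adjusted p = 0.154) and Psmb6 (−0.34, SE 0.137, adjusted p = 0.0797) were not called.

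The largest positive differences by p were those of Psme3 (0.40, SE 0.177, adjusted p = 0.109), Psme4 (0.48, SE 0.231, adjusted p = 0.141) and Psmd5 (0.16, SE 0.109, adjusted p = 0.3). The median over the 44 was −0.31 (all genes 0.00). It was 0.04 with 0 calls when the share outside exons was a covariate, where 0.105% of all genes were called. WT and Akita enter this difference as the untreated arms. With the share of all genes called in brackets, the count was 4 without WT replicate 1 (10.3%) or WT replicate 2 (10.5%) and 5 without Akita replicate 3 (17.4%). It was 6 without WT + NACET replicate 3 (15.2%) and 16 without Akita + NACET replicate 3 (21.9%). All 5 rod markers were called negative in the same test, with a median of −0.84, such as Gnat1 (−0.91) and Nrl (−0.90), and their part in the interaction of the proteasome genes was not tested.

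The immunoproteasome genes, which encode the interferon-induced counterparts of the catalytic subunits, were low and passed no test. Psmb8 was at 4.46 to 9.15 CPM and Psmb10 at 9.62 to 20 CPM over all libraries, and Psmb9 was at 0 to 0.0799 CPM and was not tested. In Akita vs WT the estimates were 0.23 (SE 0.233, adjusted p = 0.545) for Psmb8 and −0.12 (SE 0.17, adjusted p = 0.681) for Psmb10. With NACET in Akita they were −0.21 (SE 0.202, adjusted p = 0.528) and −0.01 (SE 0.149, adjusted p = 0.985).

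Other genes of the ubiquitin and proteasome pathway were read in the same fit (30 tested). In Akita vs WT, 3 were upregulated (10%, against 3.96% of all genes called upregulated and 7.64% in either direction) and none downregulated. At an unadjusted p under 0.05 were 26.7%, against 27% of all genes. DESeq2 called 13.3%, against 7.58% of the genes it fitted. Nfe2l2, which encodes NRF2, was at 25 to 27 CPM in WT and 31.9 to 43.2 CPM in Akita (0.47, SE 0.12, adjusted p = 0.0266). Ube3c, a ubiquitin ligase that works on the proteasome, rose by 0.34 (adjusted p = 0.0355), and Bag6, a chaperone for mislocalized proteins, by 0.29 (adjusted p = 0.0456). All 3 edgeR calls were lost without WT replicate 1, without WT replicate 2 and with the share outside exons as a covariate, where 0 of all genes were called in this comparison. Over 25 alternative settings Nfe2l2 and Ube3c passed in 18 each, but Bag6 in only 6. In Akita + NACET vs Akita, 2 were downregulated (6.67%, against 5.14% of all genes called downregulated and 9.65% in either direction) and none upregulated. Nfe2l2 fell by 0.35 (adjusted p = 0.0411), to 25.7 to 35.7 CPM. Uba1, the main ubiquitin activating enzyme, fell by 0.35 (adjusted p = 0.0291). Both calls were lost with that covariate, and 1 of 16197 genes was called without Akita replicate 4. In the same 25 settings Nfe2l2 passed in 13 and Uba1 in 19.

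In the remaining comparisons, 1 of the 30 (3.33%) was downregulated in WT + NACET vs WT, none was called in Akita + NACET vs WT, and 3 were upregulated and 2 downregulated in Akita + NACET vs WT + NACET (16.7% together, against 13.3% of all genes). For the interaction, 2 were positive and 5 negative (23.3%, against 20.3%). These shares were near those of all genes. The median of these 30 genes was 0.08 in Akita vs WT and −0.10 in Akita + NACET vs Akita, beside 0.09 and −0.20 for the proteasome genes. The difference between these medians was not tested.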

How the data were processed

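Poly(A) RNA from mouse retina was measured in 18 libraries. Per the study's methods, the authors made TruSeq RNA v2 libraries, sequenced them single end, aligned reads to mm9 with TopHat2 2.1.0 and obtained exon counts for each gene with HTSeq 0.11.2, without strand. The deposited files list reads with several alignments apart from the genes. The annotation used for counting is not given in the sources used here. The deposited values are raw counts per gene.

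A row without a gene name (0.0054% of counts) and 206 ribosomal RNA names (0.977%) were removed. Gene counts ran from 11495596 to 17814479 per library, which sets the counting error of low genes. Testing used edgeR 4.0.16, quasi-likelihood F (R 4.3.3, TMM, filterByExpr with a minimum count of 10 and a minimum total of 15, robust), fitted to all 4 groups at once, with 16183 genes tested and 6 contrasts. Adjusted p-values follow Benjamini and Hochberg over all tested genes, and genes at 0.05 or below were called, with no minimum fold. The test was also tried on counts simulated with the means, dispersions and sizes of these libraries, and the outcome is not reported here. CPM used TMM-scaled library sizes. RPKM and coordinates used the GENCODE M1 annotation of mm9. SE came from the F statistic.

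The members, gene lists and comparisons were chosen with earlier results of these data known. Described in full are the 3 members with the smallest p in each direction in Akita vs WT, Akita + NACET vs Akita, WT + NACET vs WT and the interaction, and the catalytic subunits (13 genes). Other called members are named, some with their values. Of other pathway genes, those called in Akita vs WT or in Akita + NACET vs Akita and the immunoproteasome genes are given by value. Some genes of these lists and of the markers are not reported here and were left out of their counts and sums. Alternatives were DESeq2 1.42.0, its size factors, fits of 2 groups, no filter, a replicate block, the share outside exons as a covariate, a length correction and each library left out.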

Additional observations from a re-analysis of the deposited data

Results flagged for a closer look

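Of 54 groups of 4 to 6 libraries examined for the 13 genes described in full and the sums, 3 held a library far from the others, and chance alone sets apart about 1 group in 20. Psmb5, the chymotrypsin-like subunit, was at 33.1 CPM in Akita + NACET replicate 5, against 55 to 62.7 CPM in the other 4 libraries of that group. Psmb6, the caspase-like subunit, was at 324 CPM in Akita replicate 3, against 274 to 276 CPM in the other 3. The summed level of the 33 core and regulatory particle genes was 5221 CPM in Akita replicate 3, against 4772 to 4793 CPM in the other 3. The shares of reads outside exons in these libraries were 19.8% (Akita + NACET replicate 5, the highest of all) and 9.67% (Akita replicate 3, the lowest of its group), and their part in these values was not tested.

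The effect of NACET differed between Akita and WT for 10 members by the interaction test of edgeR, always lower in Akita. That is 22.7% of the 44 members, against 20.3% of all genes called in either direction and 10.2% called in the negative direction. The differences on the log2 scale were −0.61 for Psma1, −0.70 for Psma5, −0.47 for Psmb1, −0.60 for Psmb2, −0.55 for Psmb7, −0.42 for Psmc6, −0.32 for Psmd2, −0.48 for Psmd8, −0.45 for Psmd10 and −0.67 for Psmg4. Over 24 alternative settings they passed in 7 (Psmb1) to 23 (Psma1, Psma5 and Psmb2). None of the 10 was called when the share outside exons was a covariate.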

How the results depend on the processing

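Proteasome genes called, of 44, are given in the order Akita vs WT, Akita + NACET vs Akita, WT + NACET vs WT, Akita + NACET vs WT, Akita + NACET vs WT + NACET and interaction, where the main test gave 1, 6, 0, 0, 10 and 10. The shares of all genes called stand in brackets in the same order. For the main test they were 7.64%, 9.65%, 1.48%, 0.00618%, 13.3% and 20.3%. DESeq2 with all groups called 3, 11, 2, 0, 13 and 15 (7.58%, 8.72%, 2.62%, 0.0365%, 10.1% and 13.8%). Its size factors in edgeR gave 1, 5, 0, 0, 9 and 10 (7.78%, 9.4%, 1.51%, 0.00618%, 13.1% and 20.5%). Fits of 2 groups, without an interaction, called 0, 0, 0, 0 and 10 (0.965%, 4.56%, 1.71%, 0.0192% and 14.8%). No filter gave 0, 2, 0, 0, 7 and 7 (3.21%, 3.68%, 0.77%, 0.0073%, 5.87% and 9.3%). The length correction gave 0, 5, 0, 0, 7 and 6 (10.7%, 10.4%, 2.06%, 0.0124%, 9.87% and 18.7%). With the share outside exons as a covariate the count was 0 in all 6 (0%, 0%, 0.377%, 0.00618%, 1.2% and 0.105%). The same replicate numbers occur in each group, but same-numbered libraries did not deviate together (r from −0.332 to 0.345, over 0.1 in 4 of 22 pairs, and 2 of 18 libraries matched best with their own number), so the numbers were not taken as pairs. With the replicate block the calls were 0, 0, 0, 0, 8 and 8 (3.13%, 1.35%, 1.17%, 0%, 8.42% and 16.4%). Leaving out each library gave 0 to 4, 0 to 10, 0 to 2, 0 to 0, 5 to 18 and 4 to 16. The shares of all genes in these fits were 0% to 9.99%, 0.00617% to 10.9%, 0.437% to 2.86%, 0% to 0.0124%, 5.33% to 16.7% and 10.3% to 21.9%. The cause of these shifts was not tested. Over all called members, the one direction that turned was the interaction of Psmb1, at 0.03 with the share outside exons as a covariate. Of the tested members Psme2 had the fewest counts, 43 to 96 per library.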
